A study of Mus musculus with 6 samples.

Results

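The genes described here are 47 interferon-stimulated effector genes, which encode the antiviral proteins, ubiquitin-like modifiers and membrane proteins that cells make in response to interferon. They were listed by name for their known induction by interferon, with earlier results of these data in view, and were found in the tables by Ensembl gene ID. Of the 47, 39 had a level, among 12235 genes with a level in the series, and 38 passed the filter on low values, among 9198 genes tested.

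RNA was sequenced from DN3 thymocytes, early T cell precursors that carry CD25 but lack CD44, CD4, CD8 and lineage markers, to ask what GRP75 does as thymocytes first develop. GRP75 is the HSP70-type chaperone of the mitochondrial matrix and is encoded by Hspa9. The groups were WT and Hspa9 cKO, with 3 libraries each, from mice 5 weeks of age without treatment. The sources used here do not give the Cre driver of the conditional knockout, the strain or the number of animals behind each library. The p-values therefore describe the spread among 6 libraries, and that spread may be technical.

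Type I interferons bind a receptor whose kinases, JAK1 and TYK2, activate a complex that holds IRF9 and binds promoters at a short GAAA-repeat element, the interferon-stimulated response element. The induced genes act against viruses at several steps: they bind foreign RNA, activate RNA decay, block entry and budding, deplete nucleotides and attach the ubiquitin-like protein ISG15 to other proteins. Many of these genes also have a basal level in resting cells, and Ly6a, which encodes the stem cell antigen Sca-1, is used as a surface marker of interferon exposure on lymphocytes.

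The promoter letters of 7 members are shown first, since the members were chosen for induction by interferon. Of the 47 members, 35 had a promoter window in the RefSeq table of mouse build GRCm38.p6, running from 250 bases before to 50 bases after the annotated start. A motif of 10 letters, GAAA, any 2 bases and GAAA again, was searched on both strands with neighbouring copies allowed to overlap. It was present in 15 of the 35 (42.9%), against 1079 of 27025 genes with a window (3.99%). At least 2 copies were present in 9 members (25.7%) and in 72 of all genes (0.266%). The form of the motif was settled after these windows had been looked at. The windows of 7 members are given below, 5′ to 3′ on the strand of the gene and outside the annotated gene body, with the GAAA motif or its reverse complement in capitals. Ifit1, Ifit3, Oas1a, Ddx60 and Trim30a were called higher in Hspa9 cKO, Trim30d lies beside Trim30a, and Bst2 carries the motif but was not called.
Ifit1: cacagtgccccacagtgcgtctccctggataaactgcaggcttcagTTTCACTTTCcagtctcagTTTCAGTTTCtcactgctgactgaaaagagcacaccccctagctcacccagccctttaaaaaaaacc
Ifit3: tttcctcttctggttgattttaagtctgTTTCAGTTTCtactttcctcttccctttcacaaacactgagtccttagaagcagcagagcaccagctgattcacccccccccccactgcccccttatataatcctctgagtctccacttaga
Oas1a: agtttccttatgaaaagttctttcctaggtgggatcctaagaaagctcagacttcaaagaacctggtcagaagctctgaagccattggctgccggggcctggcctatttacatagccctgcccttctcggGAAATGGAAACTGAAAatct
Ddx60: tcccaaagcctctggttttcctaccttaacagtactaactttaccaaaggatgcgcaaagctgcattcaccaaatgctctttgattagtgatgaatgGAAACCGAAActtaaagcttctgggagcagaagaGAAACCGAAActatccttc
Trim30a: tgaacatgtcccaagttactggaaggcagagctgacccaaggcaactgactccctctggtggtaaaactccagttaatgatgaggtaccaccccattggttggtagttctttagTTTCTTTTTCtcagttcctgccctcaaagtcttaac
Trim30d: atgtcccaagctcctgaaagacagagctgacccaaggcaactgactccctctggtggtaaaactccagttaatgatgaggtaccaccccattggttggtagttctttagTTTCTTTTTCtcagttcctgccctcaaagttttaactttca
Bst2: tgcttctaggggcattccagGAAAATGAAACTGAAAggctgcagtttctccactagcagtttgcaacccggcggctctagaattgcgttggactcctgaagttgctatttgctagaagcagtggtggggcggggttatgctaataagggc
These stretches are chr19:34640739-34640870 (plus strand), chr19:34583379-34583528 (plus), chr5:120907526-120907675 (minus), chr8:61927937-61928086 (plus), chr7:104465194-104465343 (minus), chr7:104507850-104507999 (minus) and chr8:71537473-71537622 (minus). In Ifit1 the copies lay at bases -104 to -95 and -85 to -76 from the start, and in Ddx60 at -53 to -44 and -19 to -10. In Oas1a and Bst2 the copies overlapped and formed 1 run of 3 GAAA units, starting at -20 and at -130. The windows of Trim30a and Trim30d shared an identical run of 118 bases. A match is a description of the letters and not of a bound site. Among tested members with the motif 7 of 10 were called higher, with a median log2 change of 1.01. Among those without it 11 of 17 were, with a median of 0.76, against 8.4% of all genes. Both sets held called members that passed the filter only with the help of Hspa9 cKO libraries. These were Ifit3, Rsad2 and Ddx60 with the motif, and Cmpk2 and Ifi44 without it. The set without it also held Ifi35 and Isg20, whose listed levels came wholly or partly from other loci. It held Rnf213 too, some of whose listed starts lay before the annotated gene. The difference between the sets was not tested.

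The checks of the libraries were as follows. The level of Hspa9 itself was 105, 121 and 122 FPKM in WT and 117, 124 and 110 FPKM in Hspa9 cKO, a log2 difference of 0.01 (SE 0.087; exact two-sided permutation p = 0.9, the smallest possible being 0.1), and the sum of its starts checks nothing if internal exons were removed. The event that includes a block of Hspa9 exons fell from 105, 109 and 105 FPKM to 24.9, 16.8 and 25.2 FPKM, and the event that skips them was unlisted, 12.3 and 17.0 FPKM in WT and 76.9, 89.4 and 68.9 FPKM in Hspa9 cKO, so the 2 groups of libraries differed in these events in the direction of their labels. Correlations between libraries were 0.960 to 0.966 within groups and 0.934 to 0.943 between them. The tables hold FPKM and no counts, so the depth is unknown. FPKM relates fragments to the length of the transcript and the size of the library. Of 9198 genes tested 773 were higher in Hspa9 cKO and 516 lower (limma on log2(FPKM + 1), adjusted p under 0.05), a split that became 596 and 700 after scaling by trimmed means and 613 and 671 after scaling by median ratios. The median log2 change over all genes was 0.061, and -0.0017 and 0.0083 after these scalings.

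Most of the measured interferon-stimulated genes were higher in Hspa9 cKO thymocytes. Of the 38 tested members 27 were called higher and 0 lower, against 8.4% of all genes called higher and 5.61% lower. Of the 11 not called, 10 had a log2 change above 0. The median log2 change of the members tested was 0.95, from -0.37 to 3.97. In 32 members the lowest Hspa9 cKO library lay above the highest WT library, an arrangement found in 23.2% of all genes. In 18 members the log2 change of the called rise was at least 1, which holds for 169 of all genes (1.84%). Of the 38, 7 (Cmpk2, Ddx60, Ifi44, Ifit3, Mx1, Rsad2 and Rtp4) passed the filter only with the help of Hspa9 cKO libraries and so had to differ. Among the other 31, at 1 FPKM or more in all WT libraries, 20 were called higher, against 7.8% of 8504 genes of that kind, with median log2 changes of 0.84 and 0.035. Because these are bulk libraries, fewer cells of a type and less RNA per cell cannot be told apart, nor can a rise in all cells and a larger rise in some cells. Values below are listed in the order of replicates 1 to 3, log2 changes are differences of log2(FPKM + 1), which come out smaller than true changes for low genes, and each p is limma's, adjusted over all genes tested.

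**Figure D1:**
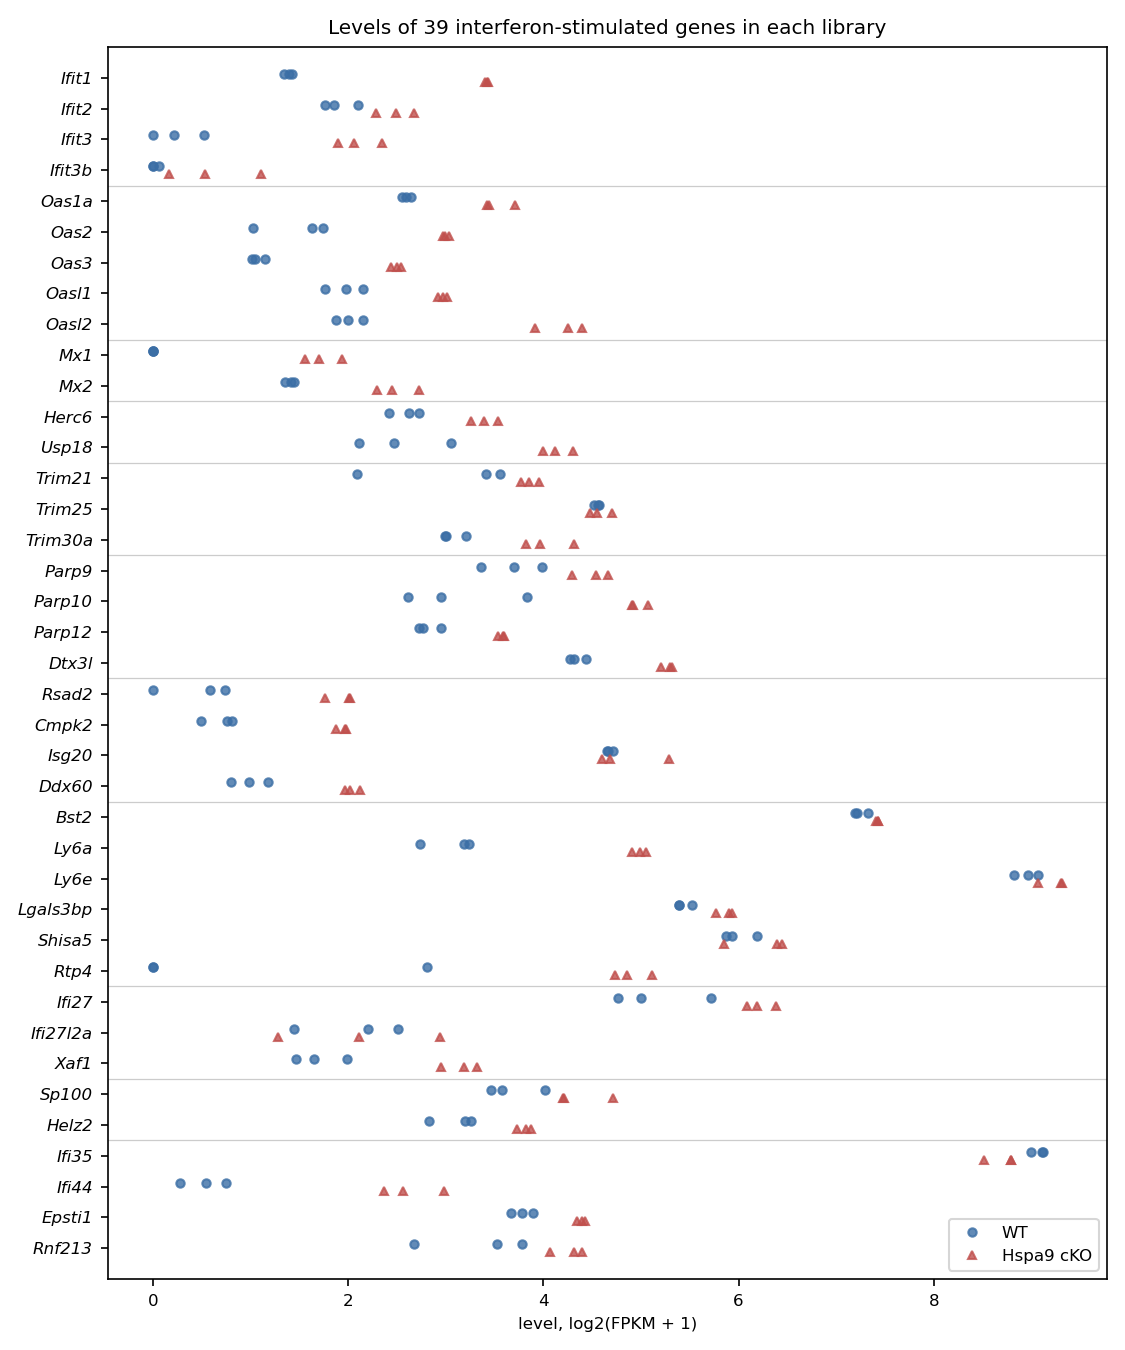
Level of each of the 39 members with a level, on a log2(FPKM + 1) axis, with 1 circle per WT library and 1 triangle per Hspa9 cKO library; grey lines separate groups of related function. Triangles lie to the right of all circles in the members whose groups do not overlap, such as Ifit1 and Oasl2, and they intermix in Trim25 and Ifi27l2a.

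Of the IFIT proteins, IFIT1 binds viral RNA that lacks the host's cap methylation and keeps it from being translated. Ifit1 was at 1.53, 1.63 and 1.69 FPKM in WT and at 9.76, 9.54 and 9.75 FPKM in Hspa9 cKO, a log2 change of 2.03 (SE 0.092, adjusted p = 0.000488). Every Hspa9 cKO library lay above every WT library, and the replicates of each group differed little. Ifit3 was at 0.164 and 0.436 FPKM in WT replicates 1 and 2, unlisted in WT replicate 3, and at 3.16, 4.08 and 2.73 FPKM in Hspa9 cKO (log2 change 1.85, SE 0.20, adjusted p = 0.0045). Ifit2 was at 3.30, 2.63 and 2.39 FPKM in WT and at 5.40, 3.88 and 4.60 FPKM in Hspa9 cKO. Its groups did not overlap, but the log2 change of 0.57 (SE 0.15) was not called (adjusted p = 0.056). Ifit3b, a near copy of Ifit3, did not pass the filter: it was listed in 1 WT library, at 0.040 FPKM, and at 0.445, 0.118 and 1.15 FPKM in Hspa9 cKO. Reads of Ifit3 and Ifit3b may have been split between the copies, so the value of each is uncertain.

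All 5 tested genes of the OAS family rose. OAS enzymes make short adenylate chains in response to double-stranded RNA and so activate the nuclease RNase L, while Oasl1 lacks that activity. Oasl2 had the largest change of the family, from 3.0, 2.66 and 3.43 FPKM in WT to 14.1, 20.1 and 18.0 FPKM in Hspa9 cKO (log2 change 2.18, SE 0.15, adjusted p = 0.0014). Oas1a had the highest level of the family in WT and went from 4.86, 5.03 and 5.23 FPKM to 12.1, 9.87 and 9.74 FPKM (log2 change 0.93, SE 0.11, adjusted p = 0.006). The remaining members, Oas2, Oas3 and Oasl1, had log2 changes of 1.53, 1.42 and 1.01. In each of the 5 genes every Hspa9 cKO library lay above every WT library. Mouse Oas1 genes are near copies of each other, so the level of Oas1a may include reads of its copies.

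Both Mx genes, which encode dynamin-like GTPases that trap viral ribonucleoproteins, rose. Mx1 was listed at 0 in all WT libraries and at 1.93, 2.24 and 2.82 FPKM in Hspa9 cKO (log2 change 1.73, SE 0.15, adjusted p = 0.0026). No fold is given against a group at 0, and in these tables a 0 can be a failed estimate. Mx1 passed the filter only with Hspa9 cKO libraries and so had to differ. Mx2 was at 1.67, 1.56 and 1.72 FPKM in WT and at 4.46, 5.61 and 3.92 FPKM in Hspa9 cKO (log2 change 1.09, SE 0.14, adjusted p = 0.0073).

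Of the ISG15 conjugation system, Herc6, the ligase that attaches ISG15 in mice, and Usp18, the protease that removes it and also restrains the receptor, both rose. Usp18, measured by its transcript end, was at 4.54, 3.33 and 7.30 FPKM in WT and at 18.7, 14.9 and 16.4 FPKM in Hspa9 cKO (log2 change 1.59, SE 0.24, adjusted p = 0.013). Herc6 was at 5.16, 4.36 and 5.63 FPKM in WT and at 9.50, 10.6 and 8.60 FPKM in Hspa9 cKO (log2 change 0.81, SE 0.12, adjusted p = 0.013). The call of Usp18 was lost without Hspa9 cKO replicate 1 or 3 (highest adjusted p = 0.052) and that of Herc6 without Hspa9 cKO replicate 1 (adjusted p = 0.0511). Isg15 itself had no event in any table, and the activating enzyme Uba7 had none under its own ID.

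Among the TRIM ubiquitin ligases 1 of 3 tested genes was called. Trim30a, a regulator of inflammatory signalling, was at 7.03, 6.94 and 8.21 FPKM in WT and at 14.6, 13.1 and 18.9 FPKM in Hspa9 cKO (log2 change 0.97, SE 0.15, adjusted p = 0.013). Trim21, the cytosolic antibody receptor, was at 10.8, 3.24 and 9.67 FPKM in WT and at 13.4, 12.6 and 14.5 FPKM in Hspa9 cKO. The groups of Trim21 did not overlap, WT replicate 2 lay well below the other WT libraries, and the log2 change of 0.84 (SE 0.39) was not called (adjusted p = 0.20). Trim25, the ligase that acts on the RNA sensor RIG-I, was at 22.0, 22.7 and 22.5 FPKM in WT and at 25.0, 22.3 and 21.4 FPKM in Hspa9 cKO, with overlapping groups and a log2 difference of 0.03 (SE 0.083, adjusted p = 0.85).

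All 4 tested genes of ADP-ribosylation and its partner ligase rose. Parp9 and Dtx3l encode an enzyme pair that act together on chromatin, and their genes lie head to head on chromosome 16. Dtx3l was at 18.9, 20.7 and 18.3 FPKM in WT and at 38.9, 38.3 and 35.9 FPKM in Hspa9 cKO, a log2 change of 0.93 (SE 0.080, adjusted p = 0.0024). Parp9 was at 9.24, 12.0 and 14.8 FPKM in WT and at 18.6, 22.2 and 24.3 FPKM in Hspa9 cKO (log2 change 0.82, SE 0.18, adjusted p = 0.036). Parp10, a mono-ADP-ribosyltransferase, had the largest change, from 13.3, 5.11 and 6.74 FPKM to 32.6, 29.1 and 29.3 FPKM (log2 change 1.84, SE 0.30, adjusted p = 0.016). Parp12 had a log2 change of 0.76. The call of Parp9 was lost when any library but WT replicate 3 was left out (highest adjusted p = 0.111), and that of Parp10 without WT replicate 3 and without each of the Hspa9 cKO libraries (highest adjusted p = 0.0604).

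Of the enzymes that act on nucleotides and RNA, 3 of 4 tested rose. These 3, Rsad2, Cmpk2 and Ddx60, passed the filter only with the help of Hspa9 cKO libraries and so had to differ. The count is therefore no support for a rise. Rsad2 encodes viperin, which makes a chain-terminating nucleotide, and its neighbour Cmpk2 encodes a mitochondrial nucleotide kinase that feeds it. Rsad2 was at 0.669 and 0.502 FPKM in WT replicates 1 and 2, unlisted in WT replicate 3, and at 3.05, 2.40 and 3.02 FPKM in Hspa9 cKO (log2 change 1.49, SE 0.22, adjusted p = 0.012). Cmpk2 was at 0.407, 0.687 and 0.747 FPKM in WT and at 2.95, 2.90 and 2.66 FPKM in Hspa9 cKO, a log2 change of 1.25. Ddx60, a helicase-like protein, had a log2 change of 1.04. Isg20, an RNA exonuclease, had the highest level of the group but overlapped, at 24.3, 24.1 and 25.3 FPKM in WT and at 23.3, 24.7 and 38.1 FPKM in Hspa9 cKO (log2 difference 0.18, SE 0.19, adjusted p = 0.55). With a pseudocount of 0.1 the call of Rsad2 was lost.

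The membrane and secreted proteins held the most abundant members and the least uniform changes, with 3 of 6 tested called. Ly6a was at 8.46, 8.12 and 5.66 FPKM in WT and at 30.9, 32.3 and 29.0 FPKM in Hspa9 cKO, a log2 change of 1.93 (SE 0.15, adjusted p = 0.002). Ly6e, its neighbour within 100 kb, encodes a surface protein that blocks fusion of some viruses, and was at 497, 453 and 535 FPKM in WT and at 634, 535 and 633 FPKM in Hspa9 cKO. The groups of Ly6e overlapped, and the log2 difference of 0.28 (SE 0.10) was not called (adjusted p = 0.12). Bst2 encodes tetherin, which holds budding virus at the cell surface, and was at 145, 148 and 160 FPKM in WT and at 171, 171 and 169 FPKM in Hspa9 cKO. Its groups did not overlap and its log2 difference was 0.17 (SE 0.065, adjusted p = 0.13). Lgals3bp, a secreted galectin-binding glycoprotein, was at 40.9, 41.0 and 45.0 FPKM in WT and at 58.7, 60.3 and 53.7 FPKM in Hspa9 cKO (log2 change 0.43, SE 0.080, adjusted p = 0.021). Its call was lost without WT replicate 1 or 2 or Hspa9 cKO replicate 1 or 2 (highest adjusted p = 0.0753). Shisa5, a membrane protein linked to apoptosis, was not called and overlapped (log2 difference 0.23, adjusted p = 0.43).

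Rtp4, a Golgi chaperone of receptors that binds viral RNA, had the largest log2 change of all members, and this value rests on how its transcripts were listed. By starts Rtp4 was unlisted in WT replicates 1 and 3, at 6.0 FPKM in WT replicate 2, and at 33.5, 25.7 and 28.0 FPKM in Hspa9 cKO, a log2 change of 3.97 (SE 0.76, adjusted p = 0.024). That call was lost when any library but WT replicate 2 was left out (highest adjusted p = 0.0798) and with a pseudocount of 0.1. By transcript ends Rtp4 was at 9.69, 7.78 and 7.71 FPKM in WT and at 36.6, 29.8 and 31.3 FPKM in Hspa9 cKO, a log2 change of 1.84 (SE 0.12, adjusted p = 0.0013). The groups were apart on both measures, and the change by ends was the smaller.

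Of the IFI27 family and the apoptosis-linked Xaf1, 2 of 3 tested genes rose. Ifi27, a small membrane protein of mitochondria and the nuclear envelope, was at 26.2, 31.0 and 51.6 FPKM in WT and at 71.7, 67.2 and 82.5 FPKM in Hspa9 cKO (log2 change 1.06, SE 0.25, adjusted p = 0.041). Its call was lost when any library but WT replicate 3 was left out (highest adjusted p = 0.123). Xaf1, whose product binds the apoptosis inhibitor XIAP, was at 2.13, 1.77 and 2.97 FPKM in WT and at 8.12, 6.74 and 9.0 FPKM in Hspa9 cKO (log2 change 1.45, SE 0.17, adjusted p = 0.0063). Ifi27l2a, which lies next to Ifi27, was at 1.73, 3.60 and 4.71 FPKM in WT and at 1.43, 3.31 and 6.66 FPKM in Hspa9 cKO, so its groups overlapped throughout (log2 difference 0.05, SE 0.47, adjusted p = 0.95).

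Among nuclear proteins, Helz2, a helicase co-activator, was at 8.18, 8.55 and 6.11 FPKM in WT and at 12.3, 13.7 and 13.2 FPKM in Hspa9 cKO, a log2 change of 0.72 (SE 0.13, adjusted p = 0.022). Its call was lost without WT replicate 1 and without each of the Hspa9 cKO libraries (highest adjusted p = 0.0793). Sp100, a scaffold of nuclear bodies, was at 10.9, 10.02 and 15.2 FPKM in WT and at 17.4, 25.3 and 17.5 FPKM in Hspa9 cKO. Its groups did not overlap, but the log2 change of 0.69 (SE 0.21) was not called (adjusted p = 0.077).

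Of the remaining induced genes, Ifi44 and Epsti1 rose. Ifi44, a cytosolic protein with a GTP-binding motif, was at 0.681, 0.457 and 0.215 FPKM in WT and at 6.90, 4.91 and 4.17 FPKM in Hspa9 cKO, a log2 change of 2.11 (SE 0.21, adjusted p = 0.004). Epsti1 went from 11.7, 13.9 and 12.8 FPKM to 20.1, 20.6 and 19.2 FPKM (log2 change 0.61, SE 0.087, adjusted p = 0.0098). Rnf213, a giant ubiquitin ligase, was at 12.7, 10.5 and 5.39 FPKM in WT and at 20.1, 18.8 and 15.8 FPKM in Hspa9 cKO. Its groups did not overlap and its log2 change of 0.93 (SE 0.29) was not called (adjusted p = 0.086). Ifi35 was the single member with every Hspa9 cKO library below every WT library, which holds for 15.7% of all genes, and those values are of another locus, as described below.

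**Figure D2:**
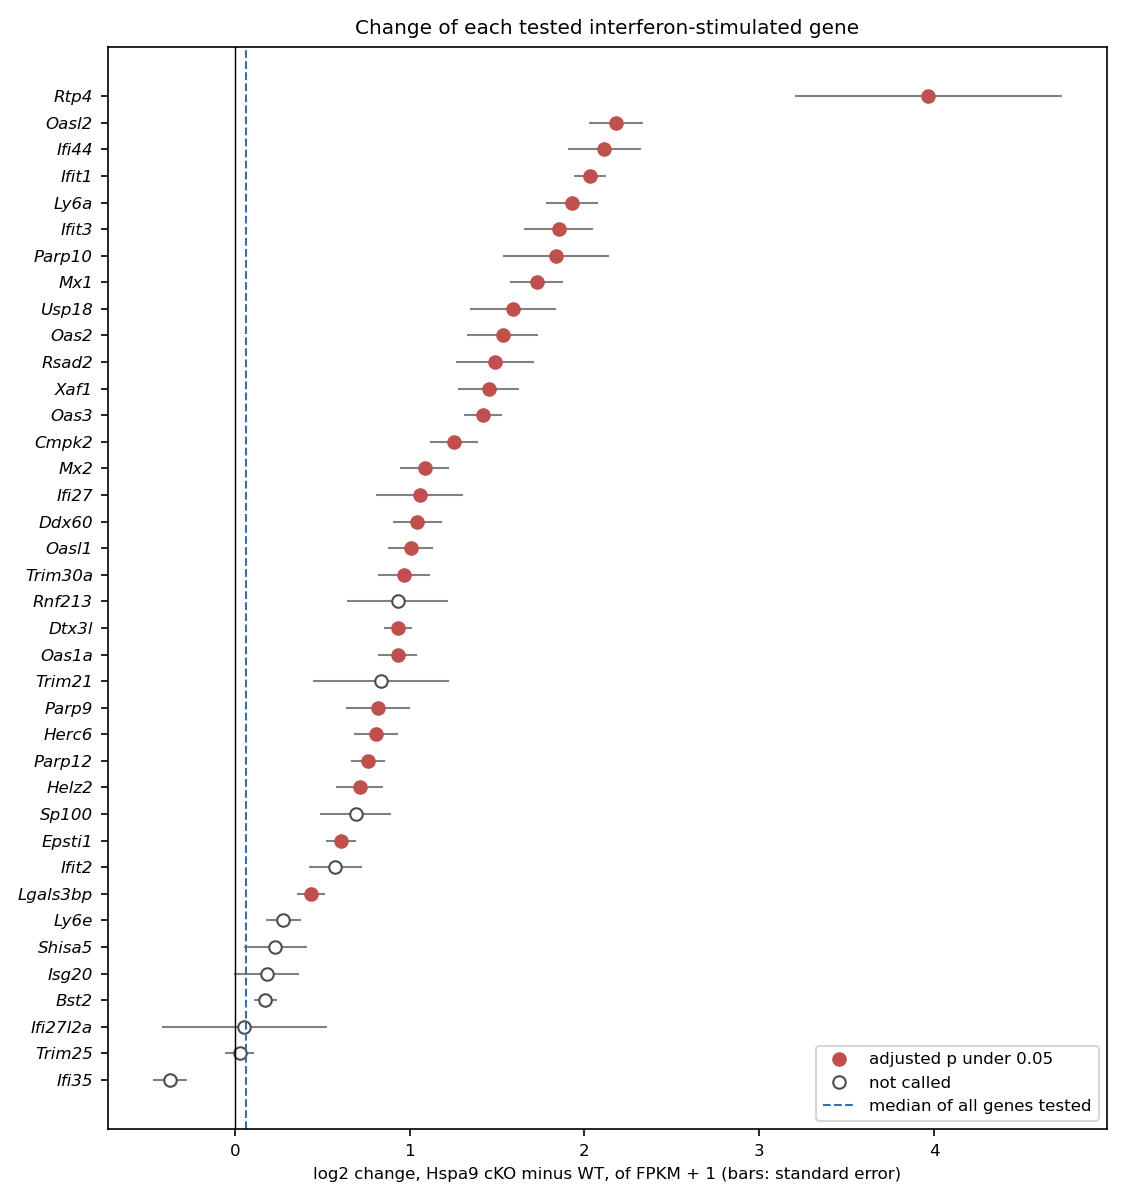
Log2 change, Hspa9 cKO minus WT, of log2(FPKM + 1) for each of the 38 tested members, ordered by size; bars are limma's standard errors, filled points are called and open points are not. The dashed line is the median of all genes tested, 0.061; the open points sit mostly at the lower end, with Rnf213, Trim21, Sp100 and Ifit2 among the filled ones.

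The size of the change went with the level in WT. Of 10 tested members under 2 FPKM in WT, all 10 were called (median log2 change 1.51). Of 16 between 2 and 10 FPKM 12 were called, with a median of 0.95, and of 12 members at 10 FPKM or more 5 were, with a median of 0.36. The same bins of all genes had 15.3%, 9.31% and 6.13% called higher, with medians of 0.34, 0.15 and -0.04. The WT level enters both quantities, and a gene under 1 FPKM in WT passed the filter only if its Hspa9 cKO level was higher. Mx1, Ifit3, Rsad2, Cmpk2, Ifi44 and Ddx60 in the first bin and Rtp4 in the second passed only with the help of Hspa9 cKO libraries. The count of the first bin is therefore no support for a rise. Its other members, Ifit1, Oas2, Oas3 and Mx2, were at 1 FPKM or more in all WT libraries. As ratios of group means the medians of the members were 4.62, 2.10 and 1.29.

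**Figure D3:**
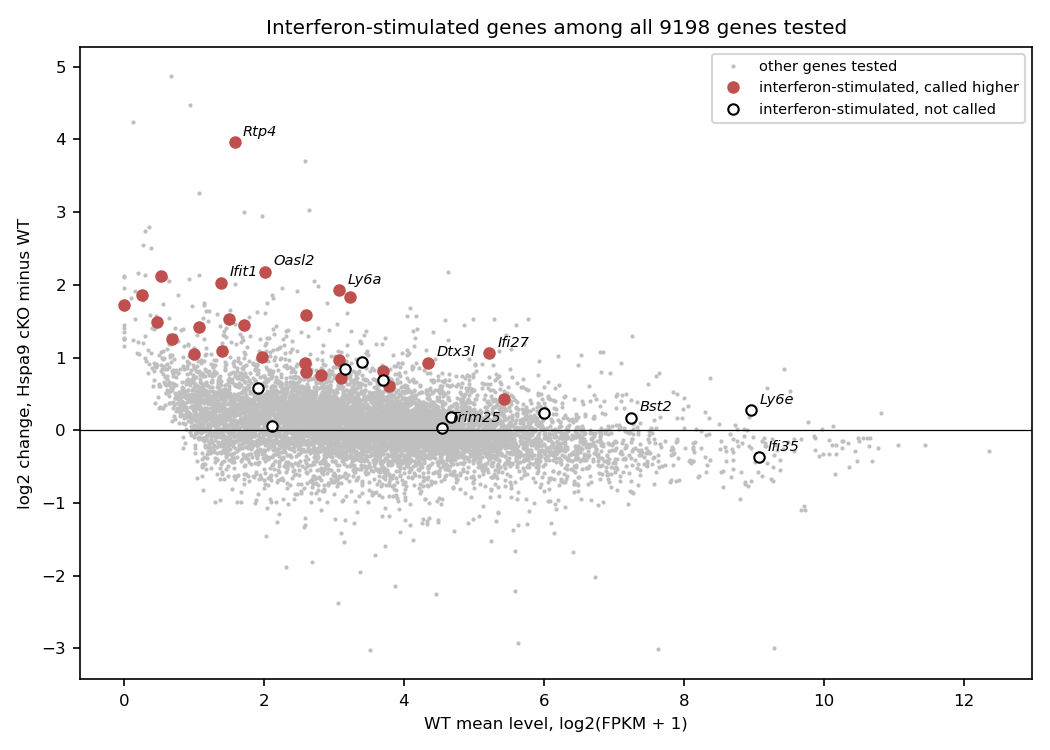
Log2 change against the WT mean level, log2(FPKM + 1), for all 9198 genes tested (grey) with the members marked by filled circles where called and open circles where not. Members lie mostly above the grey cloud at low and middle WT levels, and Bst2, Ly6e and Ifi35, at the right, lie close to it.

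Hspa9 cKO replicate 1 was the highest of its group in 16 of 38 tested members, replicate 2 in 12 and replicate 3 in 10. Leaving out each library in turn, 14 of the 27 members were called every time, 8 lost the call without at least 1 library, and the other 5, Cmpk2, Ifi44, Ifit3, Mx1 and Rsad2, were not tested without an Hspa9 cKO library because the filter then left them out.

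Some members were listed under the gene ID of a neighbour, or a neighbour under theirs. Transcript starts and ends were therefore also assigned by the annotated exon edge they name, taking for each gene the kind with the higher mean, a choice made after the data were seen. By exon edge 44 of the 47 members had a level, 41 were tested, and 30 were called higher and 0 lower, against 8.51% and 5.55% of 9613 genes. The median log2 change was 0.97, and all 41 values were above 0. Of these members, Mx1, Ifit3, Rsad2, Cmpk2, Ifi44 and Ddx60 again passed the filter only with the help of Hspa9 cKO libraries. With starts taken wherever a gene had any, 29 of 41 were called higher and 40 values were above 0, Rnf213 being at -0.10. Isg15, Samd9l and Ifitm3 had no event on either assignment. The starts listed under the ID of Ifi35 lay at the locus of Rpl27, a ribosomal protein gene, and fell from 556, 508 and 550 FPKM to 443, 366 and 442 FPKM (log2 difference -0.37, adjusted p = 0.053). The end of Ifi35 itself was at 12.1, 13.9 and 13.2 FPKM in WT and at 22.5, 106 and 22.4 FPKM in Hspa9 cKO, so all Hspa9 cKO libraries were higher, 1 of them far above the others (log2 change 1.47, SE 0.59, adjusted p = 0.15).

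Parp14, an ADP-ribosyltransferase next to Dtx3l and Parp9, was listed under a neighbouring ID and was at 8.79, 8.92 and 7.56 FPKM in WT and at 16.0, 15.7 and 17.7 FPKM in Hspa9 cKO (log2 change 0.89, SE 0.098, adjusted p = 0.0051). Trim30d was at 1.09, 2.65 and 1.58 FPKM in WT and at 5.74, 3.67 and 7.05 FPKM in Hspa9 cKO (log2 change 1.23, SE 0.28, adjusted p = 0.039). The transcripts of Trim30d and Trim30a were not compared, so the split of reads between these genes is uncertain. Uba7, the activating enzyme of ISG15, overlapped, at 31.1, 20.7 and 25.9 FPKM in WT and at 19.5, 36.8 and 28.0 FPKM in Hspa9 cKO (log2 difference 0.09, adjusted p = 0.84). Of the level listed for Isg20 43.7% lay on its own edges, the rest being starts of its neighbour Aen, a p53-induced nuclease; on its own starts Isg20 was at 8.46, 8.21 and 10.7 FPKM in WT and at 11.8, 9.99 and 20.7 FPKM in Hspa9 cKO (log2 difference 0.53, adjusted p = 0.23). Of the start level listed for Rnf213 36.7% lay on its own edges, and these starts alone gave a log2 difference of -0.10. The other starts, chr11:119386882-119390126 and chr11:119390472-119390797, lay before the annotated gene on its strand. Their means were 0.711 and 3.60 FPKM in WT and 5.89 and 7.40 FPKM in Hspa9 cKO. By its ends Rnf213 was called, at 13.8, 12.4 and 9.58 FPKM in WT and at 20.1, 20.1 and 22.3 FPKM in Hspa9 cKO (log2 change 0.77, SE 0.14, adjusted p = 0.02). In Hspa9 cKO replicate 1 its listed starts and its end both held 20.1 FPKM. Whether the starts before the gene belong to its transcripts was not tested. Phf11b and Phf11d, neighbouring nuclear proteins, did not pass the filter: Phf11b was at 0.424, 0.704 and 0.597 FPKM in WT and at 0.740, 0.729 and 1.15 FPKM in Hspa9 cKO, and Phf11d was listed in 1 library.

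**Figure D4:**
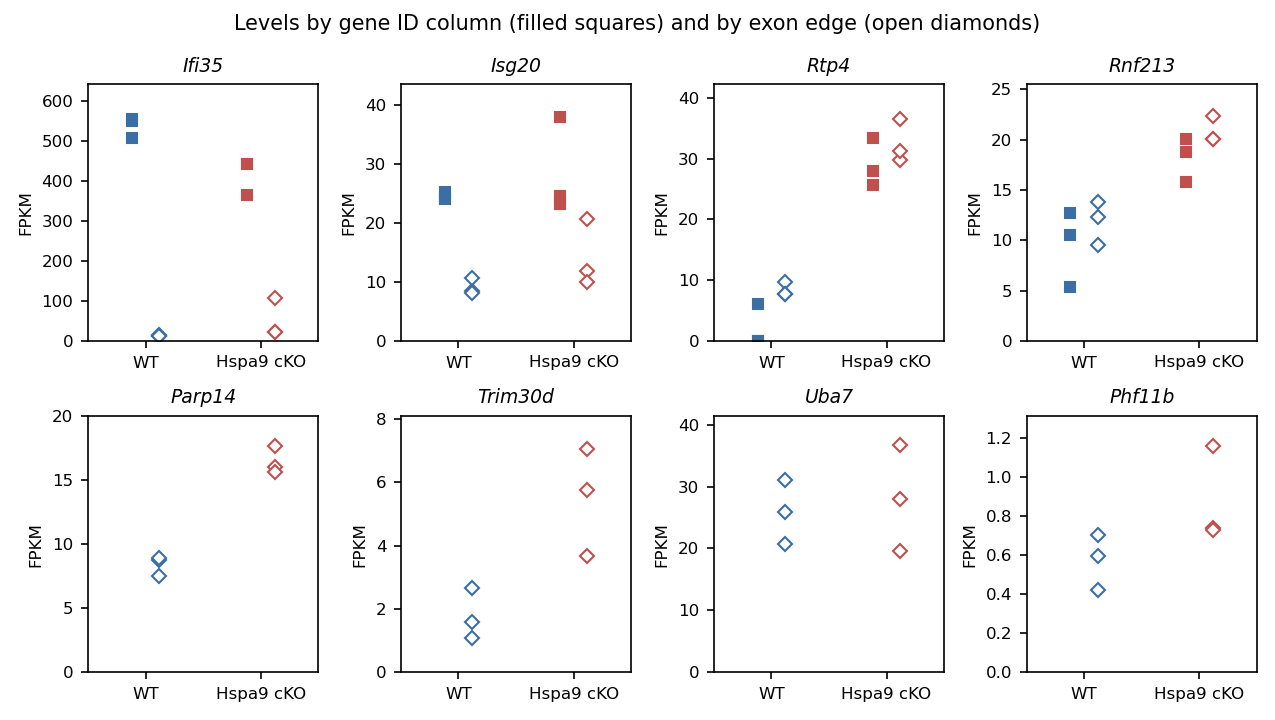
Levels in FPKM of 8 members whose events were listed under another gene's ID, or unevenly, with 1 filled square per library for levels by gene ID and 1 open diamond per library for levels by exon edge; the members without squares had no event under their own ID. Ifi35 moves from 366 to 556 FPKM down to 12.1 to 106 FPKM, and in Parp14 and Trim30d all Hspa9 cKO libraries lie above all WT libraries.

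Several members changed in which transcript start was listed, and this varied among replicates of a group. Of the members with starts on their own edges 21 had 1 start and 21 had several. In Oasl2 the start at chr5:114896936-114897862 held 2.95, 2.14 and 2.36 FPKM in WT, but in Hspa9 cKO a different start was highest in replicates 1, 2 and 3: chr5:114896688-114897151 held 13.7 FPKM in replicate 1, the first start held 13.7 FPKM in replicate 2, and chr5:114896936-114897447 held 14.0 FPKM in replicate 3. In Ly6e the main start held 618 and 616 FPKM in Hspa9 cKO replicates 1 and 3 and 419 FPKM in replicate 2, close to the 419, 396 and 448 FPKM of WT, and the first start held 7.61, 116 and 7.86 FPKM. The summed level of Oasl2 was 14.1 to 20.1 FPKM in all Hspa9 cKO libraries. These coordinates are on mm10, and the assignment of reads to starts is the authors' estimate.

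**Figure D5:**
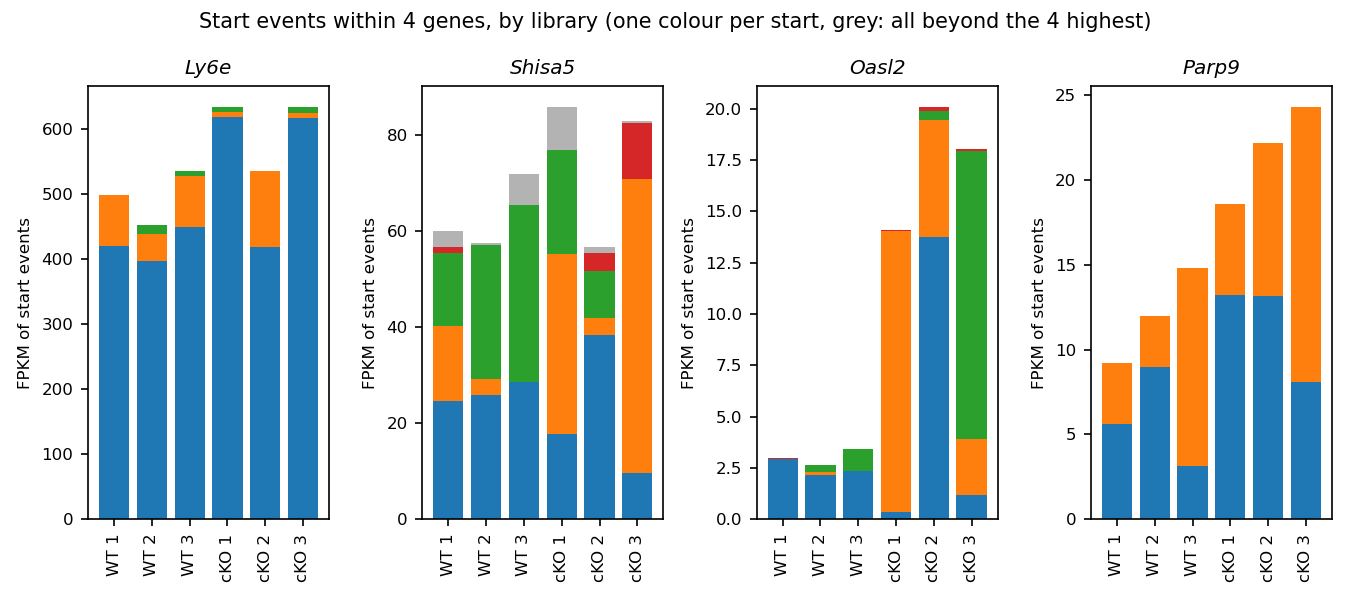
FPKM of the transcript starts of Ly6e, Shisa5, Oasl2 and Parp9 in each library, stacked so that the bar height is the level of the gene; each colour is 1 start of that gene and grey is the sum of those beyond the 4 highest. The colours trade places between replicates of a group in Oasl2 and Shisa5, while the Oasl2 bars of Hspa9 cKO, 14.1 to 20.1 FPKM, are all above those of WT, 2.66 to 3.43 FPKM.

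Members lie together in the genome. On the 15 chromosomes that hold members, 23 of the 47 fell into 10 clusters in which neighbours are within 100 kb. In the Ifit cluster on chromosome 19 the log2 changes were 0.57 for Ifit2, 1.85 for Ifit3 and 2.03 for Ifit1. In the Oas cluster on chromosome 5 they were 1.53 for Oas2 and 1.42 for Oas3, and for the neighbours Oasl2 and Oasl1 2.18 and 1.01. In 2 pairs a called gene lay beside one not called: Ly6a (1.93) beside Ly6e (0.28), and Ifi27 (1.06) beside Ifi27l2a (0.05). The difference between neighbours was not tested.

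Other genes of the interferon pathway were taken from 5 lists. Of 52 other such genes 35 had a level and 30 were tested. Of the 30, 10 were called higher and 0 lower, against 8.4% and 5.61% of all genes. Their median log2 change was 0.35, against 0.061 over all genes. Of 9 interferon genes none was tested, and by gene ID Ifnk alone was listed, in 1 Hspa9 cKO library at 0.0573 FPKM. By exon edge Ifng, the type II interferon, was also listed, at 1.04, 0.832 and 0.565 FPKM in WT and at 0.311, 0.132 and 0.208 FPKM in Hspa9 cKO. The Hspa9 cKO libraries of Ifng all lay below the WT libraries, and at these levels the gene was left out of the test. Of the receptors and kinases 1 of 7 tested was called: Ifngr1, the ligand-binding chain of the interferon gamma receptor, went from 95.5, 103 and 67.4 FPKM to 187, 174 and 134 FPKM (log2 change 0.90, SE 0.20, adjusted p = 0.034). That call was lost when any of the 6 libraries was left out (highest adjusted p = 0.103), and by transcript ends Ifngr1 had a log2 change of 0.25. Ifnar1, a chain of the type I receptor, was at 12.8, 16.1 and 13.3 FPKM in WT and at 18.2, 10.3 and 13.0 FPKM in Hspa9 cKO, with overlapping groups (log2 difference -0.05, adjusted p = 0.89).

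Among the transcription factors of the pathway, Irf7 and Irf9 were called. Irf7, the factor that amplifies interferon production, was at 2.44, 5.09 and 6.10 FPKM in WT and at 24.7, 13.4 and 20.7 FPKM in Hspa9 cKO (log2 change 1.92, SE 0.33, adjusted p = 0.018). Irf9, the DNA-binding subunit of the complex that interferon activates, was at 23.4, 21.5 and 23.9 FPKM in WT and at 38.3, 32.4 and 40.4 FPKM in Hspa9 cKO (log2 change 0.66, SE 0.10, adjusted p = 0.013). On its own exon edges, which held 62.9% of that level, Irf9 went from 10.4, 11.3 and 11.5 FPKM to 28.4, 21.7 and 29.9 FPKM (log2 change 1.19, adjusted p = 0.0055). The calls of Irf7 and Irf9 were lost without Hspa9 cKO replicate 1 or 3 (highest adjusted p = 0.068 and 0.0531). Stat2 was not called, with overlapping groups and a log2 difference of 0.38 (adjusted p = 0.22). Irf1, a factor induced by interferon gamma, was at 68.9, 45.9 and 63.3 FPKM in WT and at 45.5, 38.4 and 37.5 FPKM in Hspa9 cKO, a log2 difference of -0.53 that was not called (adjusted p = 0.092). None of the 4 tested negative regulators was called, with log2 differences between -0.27 and 0.05.

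The sensors of nucleic acid and their adaptors had 7 of 12 tested genes called higher, against 8.4% of all genes. The RNA sensors Ddx58 (RIG-I), Ifih1 (MDA5) and Dhx58 (LGP2) had log2 changes of 0.96, 1.11 and 1.12 (adjusted p = 0.01, 0.0047 and 0.0045). Ifih1 was at 3.70, 3.88 and 3.07 FPKM in WT and at 8.51, 8.19 and 9.87 FPKM in Hspa9 cKO. Zbp1, which detects left-handed nucleic acid helices, was at 9.69, 9.95 and 10.5 FPKM in WT and at 22.2, 21.2 and 22.7 FPKM in Hspa9 cKO (log2 change 1.06, SE 0.075, adjusted p = 0.0014). Eif2ak2, the kinase PKR, had 0.87 (adjusted p = 0.0035), Ikbke, a kinase of IRF factors, 0.62 (adjusted p = 0.013), and Adar, the enzyme that edits double-stranded RNA, 0.55 (adjusted p = 0.017). The calls of Ikbke and Adar were lost without Hspa9 cKO replicate 1 or 2, and that of Adar also without WT replicate 1 or Hspa9 cKO replicate 3 (highest adjusted p = 0.0522 and 0.0646). The adaptor Mavs and the DNA sensor Cgas were not called, with log2 differences of -0.04 and 0.07. Tmem173, which encodes STING, had a log2 change of 0.44 (adjusted p = 0.093), and of 0.48 (adjusted p = 0.032) by exon edge.

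Markers of cell types were summed by exon edge in each library. All 14 DN3 markers averaged at least 1 FPKM, and their sum was 2653 to 3475 FPKM in WT and 3498 to 3944 FPKM in Hspa9 cKO. By exon edge 6 were called higher and 0 lower. By gene ID 7 of 12 tested were called higher and 1, Tcf7, lower. By gene ID Tcf7 fell from 596, 415 and 440 FPKM to 316, 264 and 262 FPKM (log2 change -0.77, adjusted p = 0.029). Il2ra, which encodes the sort marker CD25, was at 158, 155 and 145 FPKM in WT and at 381, 366 and 383 FPKM in Hspa9 cKO. Cd4 did not exceed 1.01 FPKM and Cd44 0.806 FPKM in any library. The 8 later thymocyte markers summed to 42.4 to 49.1 FPKM in WT and 37.2 to 38.9 FPKM in Hspa9 cKO, with 2 lower. Their part in the interferon result was not tested.

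Of 15 markers of macrophages and conventional dendritic cells 10 had a level, summing to 15.3 to 25.8 FPKM in WT and 22.7 to 24.9 FPKM in Hspa9 cKO, with 0 called. Of the 15, 4 averaged at least 1 FPKM. By gene ID Lyz2 was at 14.3, 14.2 and 8.74 FPKM in WT and at 13.4, 15.4 and 14.1 FPKM in Hspa9 cKO. H2-Ab1 was at 7.28, 5.16 and 5.75 FPKM in WT and at 5.29, 5.51 and 5.84 FPKM in Hspa9 cKO. The groups of both genes overlapped. Csf1r, at 0.555 FPKM in 1 WT library, and Itgax, at up to 0.0439 FPKM in WT, were at 0 in all Hspa9 cKO libraries, and Adgre1 had no event. C1qb was at 0 in WT and at 0.336, 0.477 and 0 FPKM in Hspa9 cKO. Of 10 markers listed for plasmacytoid dendritic cells, the main interferon producers, 7 had a level and 2 were called higher, Ly6d and Cox6a2. The list summed to 705 to 820.0 FPKM in WT and 1082 to 1143 FPKM in Hspa9 cKO, but Siglech had no event and most of the sum was Ly6d, at 534 to 637 FPKM in WT and 851 to 884 FPKM in Hspa9 cKO. Cox6a2, which encodes a subunit of mitochondrial cytochrome c oxidase, went from 0.698, 0.496 and 0.575 FPKM in WT to 36.1, 40.3 and 64.9 FPKM in Hspa9 cKO (log2 change 4.87, adjusted p = 0.000566 by exon edge). Bst2, on the same list, is also a member here. Neutrophil markers summed to at most 0.452 FPKM in any library. The B cell markers summed to 45.7 to 102 FPKM in WT and 71.3 to 74.9 FPKM in Hspa9 cKO, with 3 of 8 at a level and Cd79b called higher, from 12.6, 9.75 and 11.9 FPKM to 17.3, 18.3 and 15.3 FPKM (adjusted p = 0.037). The NK and innate lymphoid markers, 3 of 9 at a level, summed to 200.1 to 219.5 FPKM in WT and 201 to 206.5 FPKM in Hspa9 cKO with calls in both directions. Nkg7, a protein of cytotoxic granules, rose from 31.1, 29.6 and 32.9 FPKM to 58.4, 61.6 and 57.5 FPKM (adjusted p = 0.002), and the granule protease Gzma fell from 175, 171 and 187 FPKM to 148, 143 and 144 FPKM (adjusted p = 0.035). Sums of gamma-delta T cell markers were 22.2 to 30.5 and 27.6 to 34.7 FPKM, and of progenitor markers 8.55 to 11.7 and 8.40 to 10.4 FPKM, in WT and Hspa9 cKO. Erythroid markers were lower, at 75.7 to 107.9 FPKM in WT and 54.0 to 70.8 FPKM in Hspa9 cKO with 2 called lower, and stromal and epithelial markers higher, at 47.8 to 50.4 and 65.2 to 69.9 FPKM, with 2 called higher, Epcam and Pecam1. The part of these cells in the result was not tested.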

How the data were processed

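Each group, WT and Hspa9 cKO, held 3 RNA-seq libraries of DN3 thymocytes, grouped by the labels. Per the labels' protocols, mRNA was enriched by poly(A) selection or ribosomal RNA removal, without saying which. The submitters' processing notes name cutadapt 1.9.1 and mm10; an aligner and event caller are not given here. The authors deposited FPKM per transcript-structure event, of 20 types, per the file headers. These are not counts, so the count test named as an option was not used.

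Levels are the summed FPKM of start events found by gene ID, or of end events for genes with no start in any library. Repeated event numbers were counted once, and unlisted events set to 0. Some IDs join neighbouring loci: 1128 had under 90% of their level on their own exon edges (GENCODE M21, mm10), so levels by exon edge are given beside those affected. The test was limma 3.58.1 (R 4.3.3; trended and robust variances, two-sided) on log2(FPKM + 1), for genes reaching 1 FPKM in 3 or more libraries, with Benjamini-Hochberg adjustment over all genes and a threshold of 0.05. It was also run on simulated data with normal noise, which did not model unlisted events or joined loci. That run cannot check those features.

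The members and lists were chosen with earlier results of these data known. Values per library are given for the most abundant and the most changed tested member of each role group, for members not called whose groups do not overlap and for those listed at 0 in 1 group; further members were named for a paralog, locus or transcript structure after their values were seen. Called pathway genes are named. Alternatives were a replicate block, other filters, a pseudocount of 0.1, 2 rescalings, end events, exon edges, a constant prior variance and leaving out each library. Promoter windows came from RefSeq. A pathway gene and a promoter motif are not reported here.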

Additional observations from a re-analysis of the deposited data

How the results depend on the processing

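The labels do not say whether same-numbered libraries are paired. Deviations from the group means of same-numbered libraries correlated at 0.019, -0.024 and -0.022. These values show no deviation shared across genes but do not settle whether the libraries were prepared in pairs. With the replicate number as a block, the members called higher fell from 27 to 15, the other pathway genes from 10 to 6, and all genes from 773 to 161 higher and from 516 to 84 lower. Leaving out each library in turn, the members called higher were 14 to 25 (14, 16 and 16 without Hspa9 cKO replicates 1, 2 and 3, where 33 were tested), the members called lower 0, the pathway genes 5 to 9 higher and 0 to 1 lower, the latter without WT replicate 2, and all genes 233 to 514 higher and 202 to 323 lower. Over the other alternatives 19 to 30 members were called higher, the 19 being of 28 tested under a filter of 5 FPKM. With that filter and with either rescaling 1 member was called lower, Ifi35, whose listed starts belong to Rpl27. No gene called in the main fit changed sign. Against the main fit, signs changed in 32 values of 14 genes that were not called there, and none of these values was called. Ifi35 and Rnf213 were called under some alternatives and had the other sign under others. With trimmed means and median ratios, the log2 difference of Hspa9 was -0.0598 and -0.0483, of Trim25 -0.0399 and -0.0288, and of Ptpn2 -0.0159 and -0.0047. That of Shisa5 was -0.23 by end events, that of Ifi35 1.47 by end events and by both exon-edge assignments, and those of Rnf213 and Ifngr2 were -0.10 and -0.0405 by exon-edge starts. Leaving out single libraries, the log2 difference was -0.0573 to 0.0543 for Hspa9, -0.0345 to 0.0745 for Trim25, -0.0334 to 0.3101 for Isg20, -0.3598 to 0.4681 for Ifi27l2a, -0.2549 to 0.1274 for Ifnar1, -0.1612 to 0.0678 for Irf3, -0.264 to 0.0896 for Mavs, -0.2282 to 0.0533 for Ptpn11, -0.4419 to 0.7921 for Ptpn2 and -0.1851 to 0.0882 for Ptpn6. The causes of these shifts were not tested, apart from the smaller number of genes tested under a stricter filter. Read depth is unknown, so what it limits cannot be stated.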
